A study of Mus musculus with 25 samples.

Results

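The estrogen and progesterone receptor program was taken as 10 genes: the receptors Esr1 and Pgr, the transcription factors Foxa1, Gata3 and Tbx3, the transcriptional co-regulator Cited1, the receptor-responsive genes Greb1 and Xbp1, and the secreted signals Tnfsf11 and Wnt4. The members were a list of names taken by no cut-off on a measured value, though chosen with earlier results of these data known. Each was represented by the probe set with the highest mean over the arrays. All 10 were measured, among 19937 genes tested. The values came from 25 single-colour Affymetrix arrays of mouse mammary tissue, 1 array per sample. Of these, 10 were labelled tumors of K8-creERT2/PIK3CA H1047R mice (mixed FVB/CD1 background) and 10 were labelled tumors of Lgr5-creERT2/PIK3CA H1047R mice (mixed FVB/C57/BL6 background). The reference glands were 3 from Lgr5-creERT2 ctrl mice and 2 from K8-creERT2 ctrl mice, on the background of their line. Their labels name no PIK3CA allele. The tumor-bearing mice received tamoxifen at 7 to 8 weeks of age, which switches on PIK3CA H1047R, an activated form of a PI3-kinase subunit, in cells where the promoter of keratin 8 or of Lgr5 drives the recombinase. The labels give the same protocol text for the control mice and do not say separately whether they were injected, nor the age at which any tissue was collected. Line and strain background cannot be told apart. Whether each tumor of a line is from its own animal is not in the labels, and the p-values therefore reflect the spread among the arrayed samples alone, which may be technical.

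In the mammary gland, the estrogen receptor and the progesterone receptor are made by a subset of luminal cells called hormone-sensing cells. Foxa1 is a pioneer factor that opens chromatin for the estrogen receptor, and Gata3 sustains luminal identity together with it. Most of the growth that the hormones call for is relayed to neighbouring cells, by RANKL (the product of Tnfsf11) and by Wnt4, both downstream of the progesterone receptor. Cited1 is a co-activator of the estrogen receptor that marks the hormone-sensing lineage, and Greb1 and Xbp1 are classical estrogen-responsive genes in breast cancer cells.

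Promoter sequence was available for 9 of the 10 members, in RefSeq windows of 250 bases before each annotated start (GRCm38.p6; 13 windows, since several members have more than 1 start). Both strands were searched for the full estrogen response element GGTCANNNTGACC, its recognition hexamer AGGTCA, the progesterone receptor hexamer TGTTCT, the forkhead motif TGTTTAC and the GATA motif AGATAA. A full element with A before it or T after it also holds the hexamer. Of all 32851 windows of this length, 0.0639% held the full element, 14.0% its hexamer, 16.1% the progesterone receptor hexamer, 3.17% the forkhead motif and 9.99% the GATA motif. In the member windows the full element, the progesterone receptor hexamer and the GATA motif were not found. Among the 13 windows AGGTCA was found in 1 of Cited1 and 1 of Greb1, and TGTTTAC in 1 of Foxa1. For AGGTCA this is near its share of all windows (14.0%). The 3 stretches below are shown because they hold the only matches. They run 5′ to 3′ on the gene's strand, with the match in capitals; each match reads in the opposite orientation, so TGTTTAC appears as GTAAACA and AGGTCA as TGACCT.
Foxa1, chr12:57546231-57546267, minus strand: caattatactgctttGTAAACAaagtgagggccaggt
Cited1, chrX:102250973-102251008, minus strand: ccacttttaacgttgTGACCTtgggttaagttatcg
Greb1, chr12:16800954-16800989, minus strand: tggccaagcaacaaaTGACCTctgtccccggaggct
The matches begin 141, 217 and 88 bases before the start in the order given, and those of Cited1 and Greb1 lie in 1 of their several windows. A match describes letters and is not evidence of binding.

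Tissue markers set several arrays apart in ways that their labels do not give. In the arrays labelled Lgr5 tumors 2, 6, 7, 8 and 9 the mean of 10 adipocyte markers was 12.54 to 12.73 on the log2 scale, against 7.57 to 11.24 in the 13 other tumor arrays left when K8 tumor 9 and Lgr5 tumor 10 are set aside, and 7.22 to 9.57 in the 5 glands. For 9 epithelial markers the mean lay between 9.39 and 10.08 in these 5 arrays, between 10.98 and 11.45 in the 13 tumors and between 11.23 and 11.71 in the glands. The mean of 10 squamous markers was 8.28 to 10.02 in the glands, 9.07 in K8 tumor 9 and 9.45 in Lgr5 tumor 10, and at most 7.62 in the other 18 tumors. For 7 genes of the cell cycle it lay between 9.62 and 10.10 in the glands and between 7.00 and 8.20 in the 5 fat-marker-high arrays. Against glands, 10 of 10 adipocyte, 6 of 7 fibroblast and 0 of 8 basal markers rose in Lgr5 tumors, where 5.28% of all genes were higher. There 3 of 9 epithelial and 1 of 8 basal markers fell, where 10.6% of all genes were lower. In K8 tumors 5 of 8 basal, 4 of 7 fibroblast and 0 of 10 adipocyte markers rose, where 3.42% of all genes were higher. In each line 9 of 10 squamous markers fell (5.69% of all genes were lower in the K8 line). Markers of fat, the tissue in which a mammary gland is embedded, were thus not highest in the arrays labelled gland, and every direction here is one between arrays as labelled. Whether any labels were exchanged was not tested. If tumor and gland labels were, the tumor-gland directions could turn, for genes that depend on which arrays were exchanged.

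Esr1, which encodes the estrogen receptor alpha, was higher in the arrays labelled tumor than in the glands of the same line. In K8 tumors its log2 level had a lowest value of 7.27, a median of 9.40 and a highest value of 9.66, and the K8 glands stood at 7.42 and 7.27. In Lgr5 tumors the lowest, median and highest levels were 7.71, 9.35 and 9.81, and the Lgr5 glands stood at 7.85, 8.22 and 8.03. In each line 9 of 10 tumors lay above every gland and 1 lay below them, K8 tumor 9 and Lgr5 tumor 10. The difference was 1.86 ± 0.46 on the log2 scale (SE; 3.62-fold; limma adjusted p = 0.0200; n = 10 and 2) in the K8 line and 1.17 ± 0.39 (2.24-fold; limma adjusted p = 0.0451; n = 10 and 3) in the Lgr5 line. The K8 call was lost without either K8 gland (differences of 1.93 and 1.78; limma adjusted p = 0.196 both times). The Lgr5 call was lost in 17 of 25 fits that each left out 1 array, among them each Lgr5 gland (limma adjusted p = 0.0834 to 0.182) and each of Lgr5 tumors 2, 6, 7, 8 and 9 (0.0658 to 0.0683). The others were K8 glands 1 and 2 and K8 tumors 1, 2, 3, 5, 6, 7 and 8 (0.0505 to 0.0529), which enter it only through the shared estimate of spread. With both squamous-high tumors, K8 9 and Lgr5 10, left out it passed (1.33 ± 0.16; limma adjusted p = 1.20e-05). As they had the lowest Esr1 of their lines' tumors, leaving them out raises the difference and narrows the spread by construction. Without Lgr5 tumors 2, 6, 7, 8 and 9 together the difference was 0.74 ± 0.43 and did not pass (limma adjusted p = 0.351). These had the highest Esr1 of the Lgr5 tumors, so leaving them out lowers the difference by construction. Nor did it pass with the adipocyte or the epithelial mean as a covariate (0.74 and 0.54; limma adjusted p = 0.499 and 0.552). In these fits limma called 1, 0 and 5 of all 19937 genes. Without these tumors and both squamous-high ones it passed (1.01 ± 0.12; limma adjusted p = 0.000115). That removal takes out the highest and the lowest Lgr5 tumors for Esr1 and so narrows the spread by construction. In RNA from whole tissue, fewer cells of a type and less RNA per cell cannot be told apart.

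Pgr, which encodes the progesterone receptor and is itself an estrogen-responsive gene, had the same order of groups in the K8 line. Its log2 level was 5.84 (lowest), 9.17 (median) and 10.16 (highest) in K8 tumors, against 5.99 and 6.38 in the K8 glands. In Lgr5 tumors it was 6.51, 8.34 and 9.44, against 6.76, 6.56 and 6.16 in the Lgr5 glands. All K8 tumors but tumor 9 were at 8.79 or above and did not overlap the glands, whereas Lgr5 tumors 2, 6 and 10 (6.67, 6.81 and 6.51) were near the gland values. Pgr rose by 2.81 ± 0.81 in K8 tumors (7.03-fold; limma adjusted p = 0.0331), a call lost without K8 gland 1 or 2 (limma adjusted p = 0.280 and 0.212). The Lgr5 difference of 1.56 ± 0.68 did not pass (limma adjusted p = 0.119) but did without K8 tumor 9 (limma adjusted p = 0.0396), again through the shared spread.

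**Figure D1:**
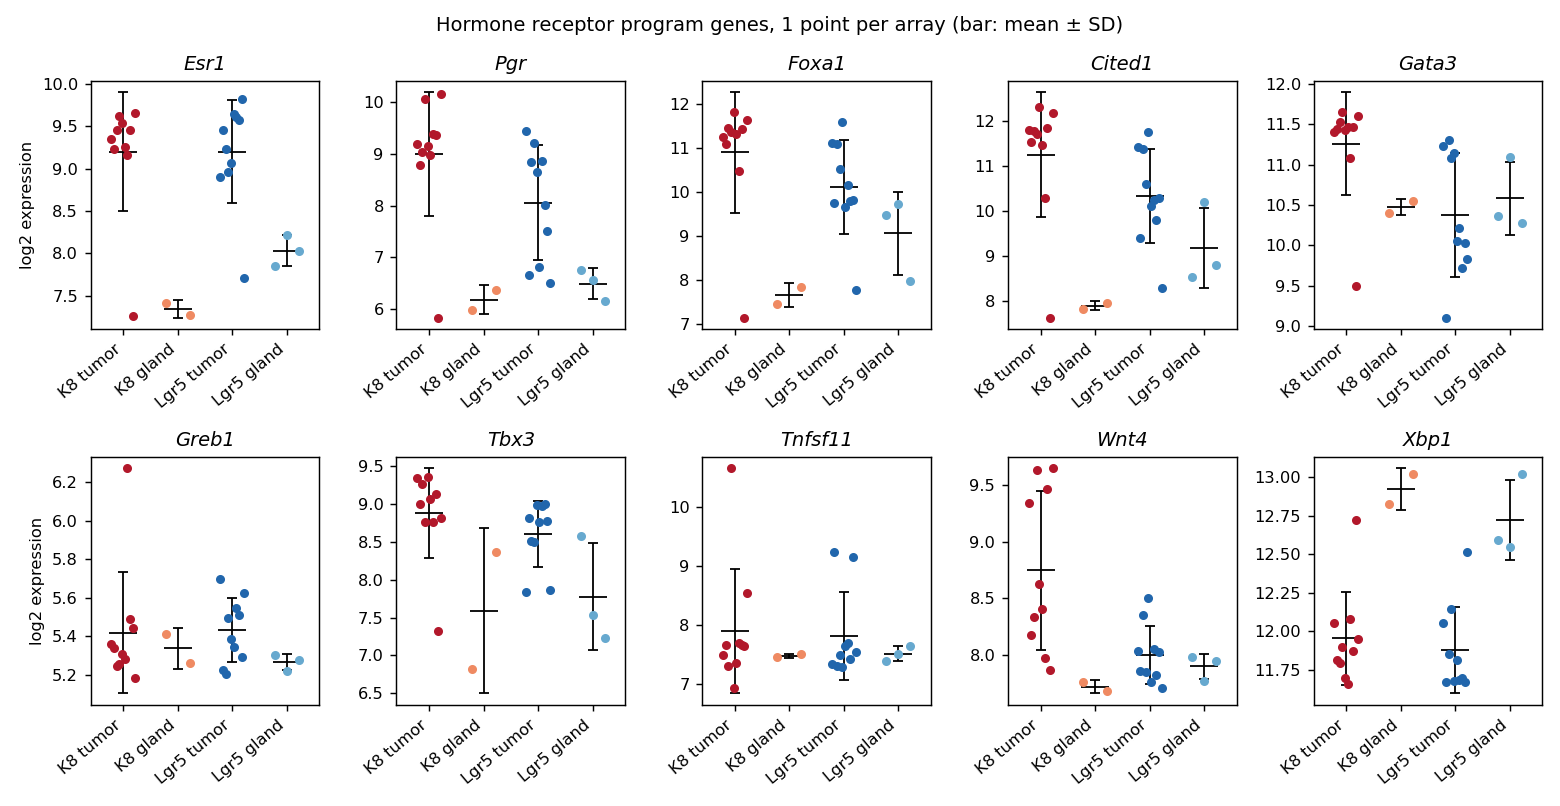
Log2 expression (vertical axis) of each of the 10 genes in the 4 labelled groups, 1 point per array, with bars for the mean ± SD; each panel has its own axis range. For Esr1, Pgr, Foxa1, Cited1 and Gata3, 9 of 10 K8 tumors lie above both K8 glands and K8 tumor 9 lies below them, and for Xbp1 all tumors of each line lie below its glands.

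Foxa1 and Cited1 had the largest differences of the 10 genes between K8 tumors and K8 glands. Foxa1 was at 7.15 (lowest), 11.35 (median) and 11.82 (highest) in K8 tumors and at 7.46 and 7.84 in the K8 glands. Cited1 was at 7.63, 11.74 and 12.31 in K8 tumors and at 7.82 and 7.96 in the K8 glands. For each gene 9 of 10 K8 tumors lay more than 2 log2 units above both glands, and tumor 9 lay below them. Foxa1 rose by 3.25 ± 0.88 (9.52-fold; limma adjusted p = 0.0278) and Cited1 by 3.36 ± 0.88 (10.3-fold; limma adjusted p = 0.0239). Without K8 gland 1 or 2 the differences were 3.06 and 3.44 for Foxa1 and 3.29 and 3.43 for Cited1, and no longer passed (limma adjusted p = 0.254 and 0.194, and 0.220 and 0.193), with the spread then taken from the other groups.

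In the Lgr5 line the same genes varied widely within each group. Foxa1 was at 7.77, 9.99 and 11.59 in Lgr5 tumors (lowest, median, highest) and at 9.49, 9.72 and 7.98 in the Lgr5 glands. Cited1 was at 8.30, 10.26 and 11.75 in Lgr5 tumors and at 8.53, 10.19 and 8.80 in the Lgr5 glands. The groups overlapped, with 8 of 10 tumors above all glands for Foxa1 and 6 of 10 for Cited1. The differences of 1.06 ± 0.75 and 1.16 ± 0.74 did not pass (limma adjusted p = 0.351 and 0.301). With the squamous-high K8 tumor 9 and Lgr5 tumor 10 left out they were 1.33 ± 0.39 and 1.38 ± 0.45 and passed (limma adjusted p = 0.0163 and 0.0277). Both arrays were the lowest tumors of their lines for these genes. Leaving them out thus raises the differences and narrows the spread by construction.

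Gata3, a zinc finger factor required for luminal fate, was at 9.49, 11.46 and 11.65 (lowest, median, highest) in K8 tumors and at 10.40 and 10.55 in the K8 glands. In Lgr5 tumors it was at 9.10, 10.13 and 11.31, and in the Lgr5 glands at 10.37, 11.10 and 10.28. The K8 tumors other than tumor 9 were all at 11.09 or above, while 6 of 10 Lgr5 tumors lay below every Lgr5 gland and 3 lay above. The differences from glands were 0.78 ± 0.50 in the K8 line (limma adjusted p = 0.368) and -0.21 ± 0.43 in the Lgr5 line (limma adjusted p = 0.788), and neither passed. Without Lgr5 tumors 2, 6, 7, 8 and 9 the Lgr5 difference was 0.34 ± 0.41, the other sign, and without those arrays and both squamous-high tumors it was 0.61 ± 0.16. The Lgr5 tumors left out in the latter fit are the 6 that lay below every gland for Gata3, so its sign was set by the removal.

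Tbx3, a T-box repressor that acts in mammary bud formation and is made by hormone-sensing cells, was at 7.32, 9.03 and 9.36 in K8 tumors (lowest, median, highest) and at 7.83, 8.77 and 9.00 in Lgr5 tumors. The glands of each line differed among themselves, with 6.82 and 8.36 in the K8 line and 8.57, 7.53 and 7.23 in the Lgr5 line. The tumor arrays overlapped the glands in both lines. The differences of 1.29 ± 0.44 (K8; limma adjusted p = 0.0641) and 0.83 ± 0.37 (Lgr5; limma adjusted p = 0.128) did not pass. With both squamous-high tumors left out they were 1.47 ± 0.34 and 0.91 ± 0.29 and passed (limma adjusted p = 0.00345 and 0.0229). Both arrays were low in Tbx3 among the tumors of their line (7.32 and 7.87), so their removal raises the differences by itself. The K8 difference passed also without K8 tumor 9 alone (limma adjusted p = 0.00644) or Lgr5 tumor 10 alone (0.0491), and was 0.52 without K8 gland 1 and 2.06 without K8 gland 2.

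Xbp1, whose product is a transcription factor of the secretory stress response, moved opposite to the receptors. It was at 11.66, 11.89 and 12.72 in K8 tumors (lowest, median, highest) and at 12.83 and 13.02 in the K8 glands. It was at 11.67, 11.76 and 12.52 in Lgr5 tumors and at 12.59, 12.55 and 13.02 in the Lgr5 glands. All 10 tumors of each line lay below every gland of that line. This was so for 9.08% of all genes in the K8 line and 3.88% in the Lgr5 line. The highest tumor values were again those of K8 tumor 9 and Lgr5 tumor 10. Xbp1 fell by 0.97 ± 0.21 on the log2 scale in the K8 line (1.96-fold; limma adjusted p = 0.0148) and fell by 0.84 ± 0.18 in the Lgr5 line (1.79-fold; limma adjusted p = 0.00969). These calls were lost without K8 gland 1 or 2 (limma adjusted p = 0.148 and 0.171) and without Lgr5 gland 3 (0.0615). Both passed with the 2 squamous-high tumors left out (-1.05 ± 0.13 and -0.91 ± 0.11), a removal that widens the fall by itself since they had the highest Xbp1. The Lgr5 call was lost without Lgr5 tumors 2, 6, 7, 8 and 9 (-0.67 ± 0.21; limma adjusted p = 0.127). In that fit limma called 0.00502% of all genes.

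The 7 measured markers of alveolar and luminal progenitor cells, the secretory lineage, had a mean level of 10.94 to 11.54 in the glands and of 8.51 to 11.05 in the 18 tumors that were not squamous-high. In the K8 line 1 of 7 fell, where 5.69% of all genes were lower, and 2 of the 7 had a positive difference. In the Lgr5 line 3 of 7 fell, where 10.6% of all genes were lower, among them Elf5, the alveolar regulator, by 1.38 ± 0.38 on the log2 scale (limma adjusted p = 0.0214). Their part in the Xbp1 difference was not tested.

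Greb1, an estrogen receptor cofactor and an early estrogen target in human breast cancer cells, stayed within a narrow range at a low level. Its mean over the arrays was at percentile 17.9 of all genes, and whether that is near the detection floor was not tested. Greb1 was at 5.18, 5.32 and 6.27 in K8 tumors, 5.41 and 5.26 in the K8 glands, 5.21, 5.44 and 5.69 in Lgr5 tumors and 5.30, 5.22 and 5.27 in the Lgr5 glands. The groups overlapped, and only K8 tumor 7, at 6.27, lay above 5.69. The differences from glands were 0.08 ± 0.18 (K8; limma adjusted p = 0.861) and 0.17 ± 0.15 (Lgr5; limma adjusted p = 0.488).

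**Figure D2:**
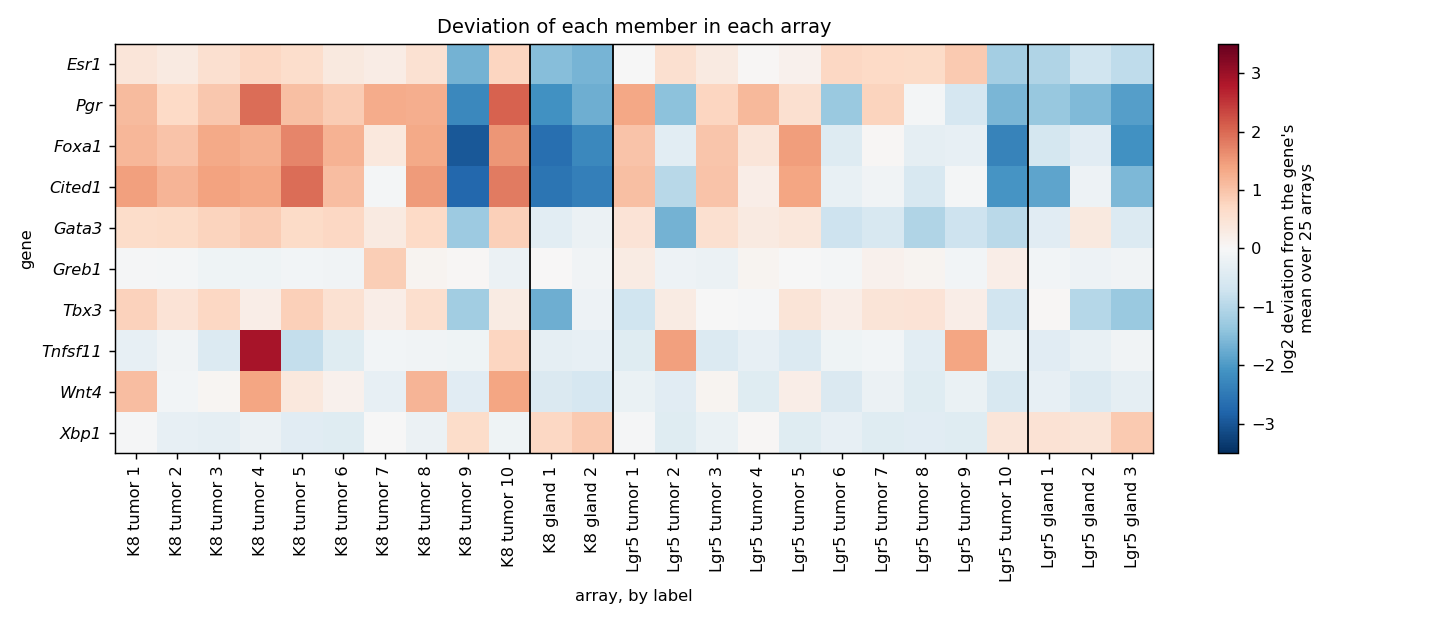
Deviation of each gene (vertical axis) in each array (horizontal axis, by label) from that gene's mean over the 25 arrays, in log2 units by colour. K8 tumor 9 and Lgr5 tumor 10 resemble the glands in Esr1, Pgr, Foxa1 and Cited1, and Tnfsf11 stands out in K8 tumor 4.

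Of the paracrine ligands, Tnfsf11 was at a similar level in most arrays and high in a few. It was at 6.95, 7.65 and 10.66 in K8 tumors (lowest, median, highest), 7.30, 7.53 and 9.24 in Lgr5 tumors, 7.46 and 7.51 in the K8 glands and 7.39, 7.52 and 7.66 in the Lgr5 glands. The high arrays were K8 tumor 4 (10.66), K8 tumor 10 (8.55), Lgr5 tumor 2 (9.24) and Lgr5 tumor 9 (9.16), and every other tumor was at 7.70 or below. K8 tumors 4 and 10 also had the highest Pgr levels of all arrays, 10.06 and 10.16, whereas Lgr5 tumors 2 and 9 had Pgr at 6.67 and 7.52. The differences of 0.42 ± 0.63 (K8; limma adjusted p = 0.779) and 0.30 ± 0.54 (Lgr5; limma adjusted p = 0.757) did not pass.

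Wnt4 was at 7.87, 8.51 and 9.65 in K8 tumors and at 7.76 and 7.68 in the K8 glands, so that all 10 tumors lay above both glands. The same held for 7.23% of all genes. Within the K8 tumors, tumors 1, 4, 8 and 10 were at 9.34 to 9.65 and the others at 8.62 or below. In Lgr5 tumors it was at 7.71, 7.95 and 8.50 and in the Lgr5 glands at 7.98, 7.77 and 7.95, which overlapped. The K8 difference of 1.03 ± 0.37 (2.04-fold) did not pass (limma adjusted p = 0.0806). It passed without K8 tumor 9, the lowest K8 tumor for Wnt4 (1.12; limma adjusted p = 0.0298). The Lgr5 difference was 0.10 ± 0.31 (limma adjusted p = 0.871).

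Counted together, 4 of the 10 genes were higher in K8 tumors than in K8 glands and 1 was lower, where limma called 3.42% of all genes higher and 5.69% lower. In the Lgr5 line 1 was higher and 1 lower, against 5.28% and 10.6% of all genes. The median difference of the 10 genes was 1.16 in the K8 line and 0.56 in the Lgr5 line, and that of all genes was -0.01 in each. With K8 gland 1 or 2 left out, the K8 calls were lost, but a single gland is too few for a count to set beside that of all genes. The remaining gland is then assumed to vary like the other groups. The differences of the 5 called genes stayed close to those with both glands, at 1.93 and 1.78 for Esr1, 2.62 and 3.01 for Pgr and -1.07 and -0.87 for Xbp1 without gland 1 and 2 in turn. With both squamous-high tumors left out the counts were 7 of 10 in the K8 line (19.9% of all genes called in either direction) and 6 of 10 in the Lgr5 line (27.0%). K8 tumor 9 was the lowest K8 tumor for 7 of the 10 genes and Lgr5 tumor 10 the lowest Lgr5 tumor for 5. Their removal thus raises many of these differences by itself. Without Lgr5 tumors 2, 6, 7, 8 and 9 limma called 0 in the Lgr5 line (0.00502%). At an unadjusted p under 0.05 there were 2 of the 10, beside 3808 of all 19937 genes. Without all 7 arrays the counts were 8 (26.8%) and 6 (18.0%), and the 6 were Esr1, Pgr, Foxa1, Cited1 and Gata3 (by the removal noted above), higher, and Xbp1, lower. For Foxa1 the Lgr5 tumors left out were at most at 10.15 and those kept at least at 10.54, for Cited1 10.29 and 10.61. The removal thus raised both differences by itself, as it did that of Gata3.

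**Figure D3:**
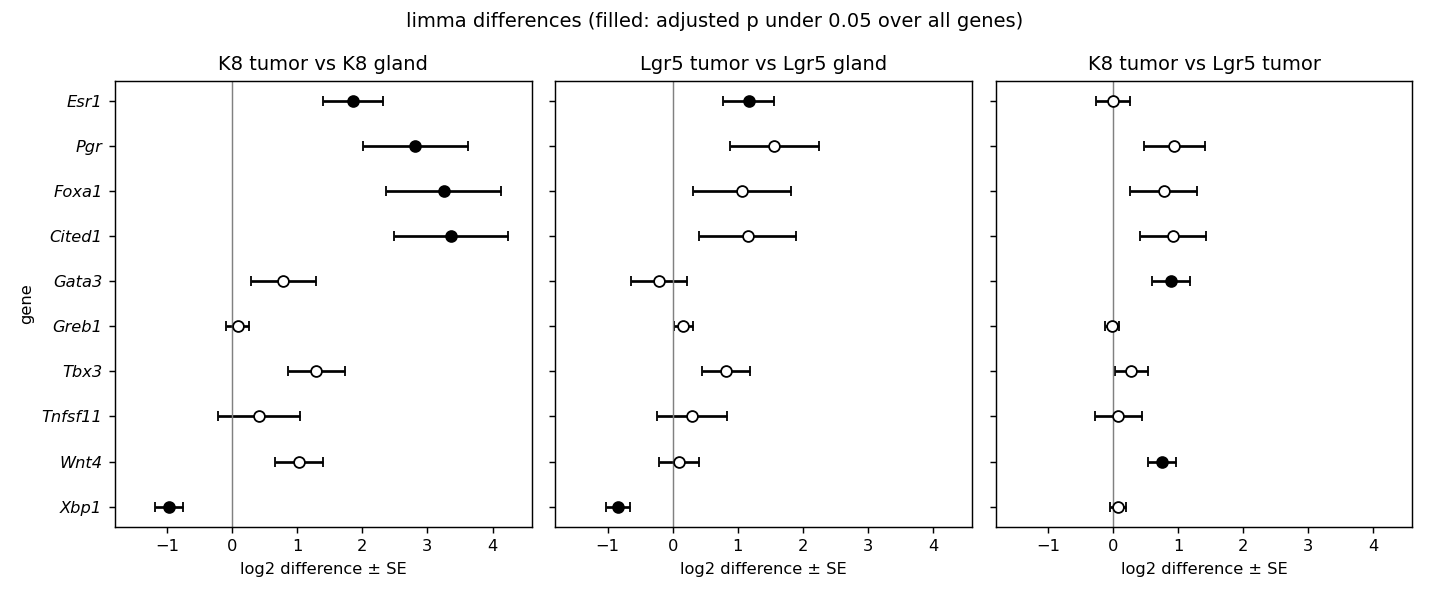
Log2 differences (points, horizontal axis) with their SE (bars) from limma for the 10 genes in 3 comparisons; filled points have an adjusted p under 0.05 over all genes. The K8 tumor-gland panel has 5 filled points, the Lgr5 panel has Esr1 and Xbp1 filled, and the panel between tumors has Gata3 and Wnt4 filled.

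The tumor-gland differences of the lines were not shown to differ from each other. The difference between them was 2.21 ± 1.15 for Cited1 and 2.19 ± 1.16 for Foxa1 (limma adjusted p = 0.781 each), and 0 of the 10 genes passed, as did 0 of all genes (0% in each direction). At an unadjusted p under 0.05 the counts were 0 of the 10 and 883 of all genes, and with limma's array weights, which give less weight to arrays far from the fit, they were 0 and 0 after adjustment. Between the glands themselves, 0 of the 10 genes and 0% of all genes passed in either direction with limma. At an unadjusted p under 0.05 there were 0 of the 10 and 319 in all, and with array weights 0 of the 10 and 5 in all. K8 glands stood below Lgr5 glands without overlap for 4 of the 10 genes, Esr1, Foxa1, Cited1 and Wnt4, where 19.8% of all genes did not overlap between these groups of 2 and 3 (8.72% with K8 lower), by 0.69 ± 0.54 for Esr1, 1.41 ± 1.04 for Foxa1 and 1.28 ± 1.03 for Cited1 (limma adjusted p = 1.00).

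Between arrays labelled K8 tumor and Lgr5 tumor, Gata3 and Wnt4 were higher in the K8 line and the other 8 genes did not pass; this comparison uses the same tumor arrays as the comparisons with glands. Gata3 was higher by 0.89 ± 0.29 (1.85-fold; limma adjusted p = 0.0347) and Wnt4 by 0.75 ± 0.21 (1.68-fold; limma adjusted p = 0.0208), where 12.3% of all genes were higher and 9.00% lower. Esr1 differed by 0.00 ± 0.26 (limma adjusted p = 0.996). Pgr differed by 0.94 ± 0.47, Foxa1 by 0.78 ± 0.51 and Cited1 by 0.92 ± 0.51 (limma adjusted p = 0.151, 0.292 and 0.197). The Gata3 call was lost in 13 of 25 fits that left out 1 array, 8 of them K8 tumors (1, 2, 3, 4, 5, 6, 8 and 10) and 5 of them Lgr5 tumors (2, 6, 7, 8 and 9), with a limma adjusted p of 0.0511 to 0.0712. Pgr, Foxa1 and Cited1 passed without K8 tumor 9, the lowest K8 tumor for each (differences of 1.29, 1.19 and 1.33; limma adjusted p = 0.0193, 0.0259 and 0.0196). With both squamous-high tumors left out, 5 of the 10 genes were higher (28.3% of all genes called). Without Lgr5 tumors 2, 6, 7, 8 and 9 limma called 0 of the 10, and 0 without all 7 arrays (0% of all genes each time). At an unadjusted p under 0.05 there were 1 and 3 of the 10, beside 1638 and 2272 of all genes. In those fits the Gata3 difference was 0.34 and 0.26, against 0.89 over all arrays, and that of Wnt4 was 0.66 both times, against 0.75.

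Within the Lgr5 tumors the members did not all vary in the same direction between sets of arrays. Esr1 was at 9.46 to 9.81 in tumors 2, 6, 7, 8 and 9, the arrays with the adipocyte mean of 12.54 to 12.73, and at 8.90 to 9.24 in tumors 1, 3, 4 and 5, with an adipocyte mean of 9.41 to 10.97. Foxa1 went the other way, at 9.66 to 10.15 in the former and 10.54 to 11.59 in the latter, as did Cited1 (9.40 to 10.29 against 10.61 to 11.75) and Gata3 (9.10 to 10.21 against 11.09 to 11.31). These sets did not overlap for Esr1, Foxa1, Cited1 and Gata3, 4 of the 10 members, beside 32.2% of all genes. Pgr (6.67 to 8.86 against 8.66 to 9.44), Tbx3 (8.76 to 9.00 against 7.83 to 8.98) and Xbp1 (11.67 to 11.81 against 11.68 to 12.14) overlapped. The sets were defined by the adipocyte markers and not by the labels, so no test is given. The epithelial mean moved with Foxa1, Cited1 and Gata3, at 9.39 to 10.08 in the first set and 11.14 to 11.43 in the second. The mean of 6 T cell markers was 6.37 to 7.67 in the first set and 6.32 to 7.34 in the second. Of these markers 3 of 6 were lower in K8 than in Lgr5 tumors, where 9.00% of all genes were lower. Their part in the differences was not tested.

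**Figure D4:**
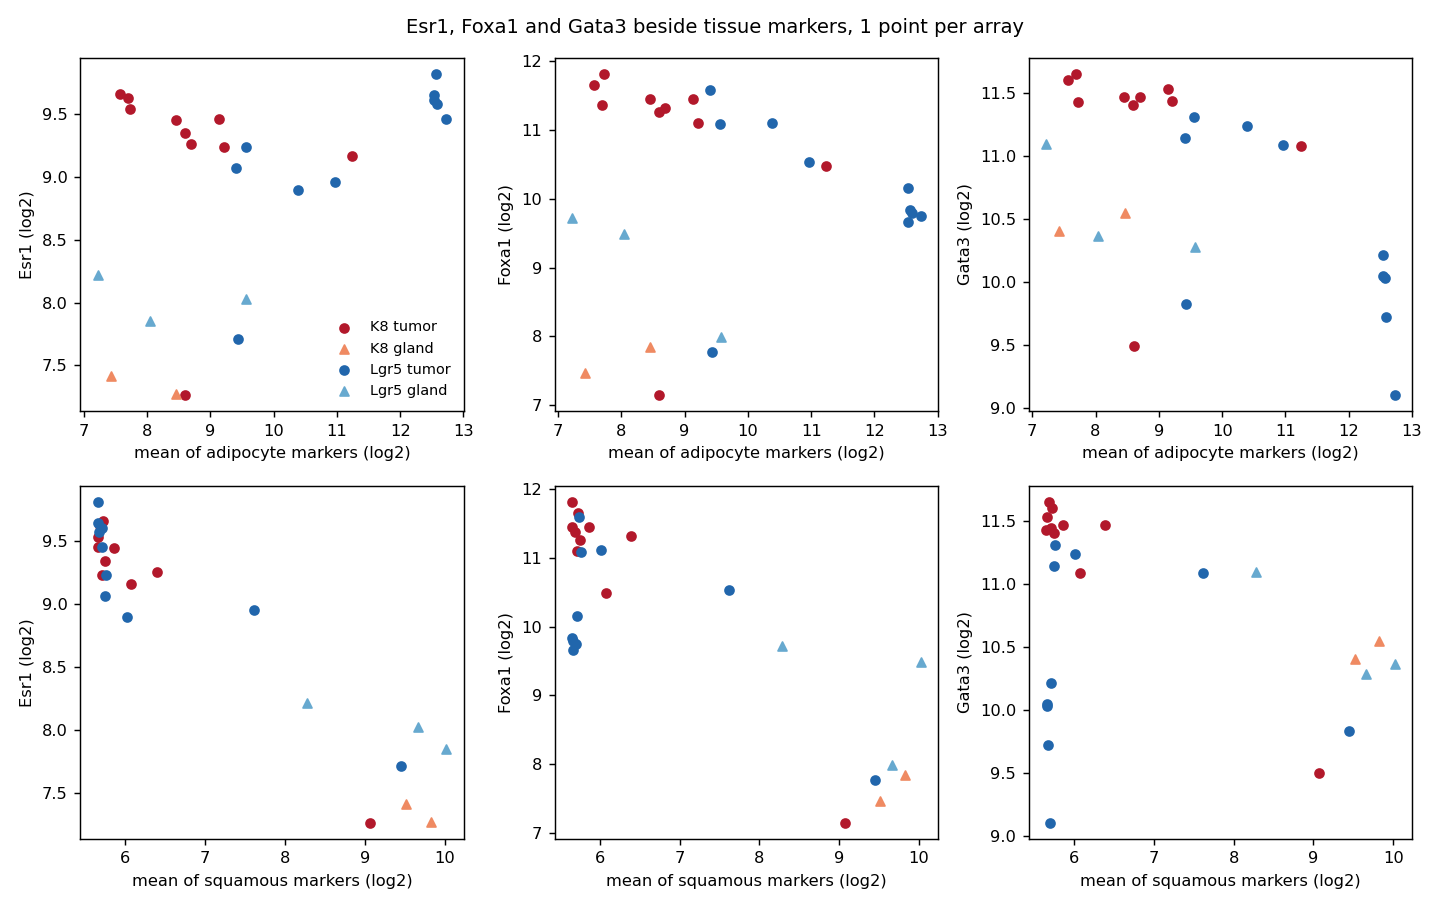
Log2 levels of Esr1, Foxa1 and Gata3 (vertical axes) against the mean log2 level of adipocyte markers (upper row) and of squamous markers (lower row), 1 point per array, by labelled group. The 5 Lgr5 tumors with an adipocyte mean above 12 have Esr1 at 9.46 or above and Gata3 at 10.21 or below, and K8 tumor 9 and Lgr5 tumor 10 lie beside the glands on the squamous axis.

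K8 tumor 9 was the lowest of the K8 tumors for 7 of the 10 genes and the highest for Xbp1, and Lgr5 tumor 10 was the lowest of the Lgr5 tumors for 5 and the highest for Xbp1. Their epithelial means, 11.85 and 11.42, were not low, and their squamous means of 9.07 and 9.45 lay within the range of the glands (8.28 to 10.02). The 5 glands and these 2 tumors were the arrays with Esr1 at 8.22 or below, every other array being at 8.90 or above, and the part of squamous tissue in the tumor-gland differences was not tested.

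The genes whose pattern over the 25 arrays was most like that of each leading member were found by the root-mean-square difference between log2 deviations from each gene's own mean. For Esr1 these were Npr2 (0.27), Lifr (0.30), Dst (0.31), Zbtb20 (0.31) and Fkbp9 (0.32), and the nearest of the other 9 members was Tbx3 (0.51; rank 193). For Pgr they were Gipc2 (0.54), Fgfr2 (0.58), Tlcd4 (0.59), Cyp3a57 (0.59) and Stc2 (0.61), with Foxa1 at rank 6 (0.63) and Cited1 at rank 9 (0.67). For Foxa1 they were Cited1 (0.35), Fgfr2 (0.36), Tlcd4 (0.40), Matn2 (0.49) and Tfap2b (0.50). By this measure Esr1 lay closer to genes outside the list than to Foxa1 (0.90) or Pgr (0.96). Xbp1 was the farthest member from all 3 (1.24, 1.70 and 1.79). The measure is not scaled, so it grows with the size of a gene's variation as well as with its shape. The SD over the arrays was 0.83 for Esr1, 1.45 for Foxa1 and 1.40 for Pgr. Greb1, with an SD of only 0.23, was nearer to Esr1 (0.85) than Foxa1 was. The arrays share groups and tissue make-up, so these values are a description.

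Of 10 other genes of the hormone-sensing lineage 6 were measured and the others were not analysed here. In K8 tumors 2 of the 6 rose, where 3.42% of all genes were higher: Stc2, a secreted glycoprotein gene, by 1.78 ± 0.49 (limma adjusted p = 0.0287), and Fxyd2, a sodium pump regulator, by 0.90 ± 0.22 (limma adjusted p = 0.0200). In Lgr5 tumors 1 rose (5.28% of all genes were higher), the chemokine gene Cxcl15, by 2.69 ± 0.69 (limma adjusted p = 0.0172). Between the tumors of the lines limma called 0 of 6, with 2 at an unadjusted p under 0.05, as were 35.5% of all genes. Prlr, which encodes the prolactin receptor, was not analysed here.

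Other estrogen receptor target genes, 14 in number, had calls in both directions, in counts set here beside 3.42% of all genes higher and 5.69% lower in the K8 line, 5.28% and 10.6% in the Lgr5 line, and 12.3% and 9.00% between tumors. In K8 tumors against glands limma called 0 higher (1 at an unadjusted p under 0.05, beside 24.6% of all genes in either direction). There 2 fell, Siah2, a ubiquitin ligase gene, by 0.46 ± 0.09 and Egr3, an immediate-early factor, by 0.45 ± 0.13 on the log2 scale (limma adjusted p = 0.0122 and 0.0294). In Lgr5 tumors 2 rose and 3 fell: Igfbp4, which binds insulin-like growth factors, rose by 0.99 ± 0.27 and Mapt by 0.24 ± 0.07, while Egr3 (-0.44 ± 0.11) and Siah2 (-0.31 ± 0.08) fell. Ccnd1, the cyclin D1 gene, fell as well (-1.02 ± 0.31) and is named there after its value was seen. Between tumors 3 were higher in the K8 line, among them Myb by 1.40 ± 0.35 and Ccnd1 by 0.77 ± 0.21, and 3 were lower, among them Igf1r (-0.40 ± 0.10) and Igfbp4 (-0.72 ± 0.19). The 7 cell cycle genes were all higher in K8 than in Lgr5 tumors, 5 of 7 fell in Lgr5 tumors against glands, and the part of either in the Ccnd1 difference was not tested.

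Among the other steroid receptors, their chaperones and coregulators, 14 of 18 genes were measured: 1 was higher and 3 lower in the Lgr5 line (5.28% and 10.6% of all genes), 1 lower in the K8 line (5.69%) and 2 higher in K8 than in Lgr5 tumors (12.3%). Esr2, which encodes the estrogen receptor beta, did not pass in any comparison (0.00 ± 0.06 in the K8 line, -0.10 ± 0.05 in the Lgr5 line; limma adjusted p = 0.980 and 0.144). Nr3c1, the glucocorticoid receptor gene, rose in Lgr5 tumors by 0.56 ± 0.17 (limma adjusted p = 0.0307). The chaperone genes Fkbp4 and Ptges3 and the coregulator gene Med1 were lower there (-0.43 ± 0.13, -0.27 ± 0.08 and -0.17 ± 0.05), and in the K8 line Ptges3 alone of the 14 passed (-0.31 ± 0.10; limma adjusted p = 0.0445). Between tumors Fkbp4 (0.25 ± 0.09) and Crebbp (0.14 ± 0.04) were higher in the K8 line.

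On the receiving side of RANKL and Wnt4, 14 of 15 receptors and relay genes were measured. The 2 that passed against glands in each line were lower. At an unadjusted limma p under 0.05 genes went both ways, 3 higher and 4 lower in the K8 line (24.6% of all genes in either direction). In the Lgr5 line 2 were higher and 6 lower at that threshold (32.0%). Tnfrsf11a, which encodes RANK, the receptor of RANKL, was lower in Lgr5 tumors (-0.91 ± 0.27; limma adjusted p = 0.0284), did not pass in the K8 line (-0.47 ± 0.32; limma adjusted p = 0.404) and was higher in K8 than in Lgr5 tumors by 0.69 ± 0.18 (limma adjusted p = 0.0167). Adam17, the sheddase that releases amphiregulin, was also lower in Lgr5 tumors (-0.49 ± 0.12). In the K8 line the Wnt feedback gene Axin2 fell by 2.28 ± 0.53 on the log2 scale and Lgr4, an R-spondin receptor gene, by 0.91 ± 0.28 (limma adjusted p = 0.0168 and 0.0430). Between tumors Id4, a basal and progenitor regulator, was higher in the K8 line with Tnfrsf11a (0.71 ± 0.24; limma adjusted p = 0.0411). The 2 of 14 genes lower in each line compare with 10.6% of all genes lower in the Lgr5 line and 5.69% in the K8 line. The 2 of 14 higher in K8 than in Lgr5 tumors compare with 12.3%.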

How the data were processed

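The deposited table holds 34760 probe sets in 25 arrays as log2 values (range 4.13 to 13.9; the base was read from the range and is not stated by the authors). Per the labels' protocols, RNA was isolated by Trizol, amplified with the NuGen Ovation Pico WTA system and labelled with the Affymetrix WT kit. The submitters' processing notes name affy, its version, background correction, summarization and genome build being not given in the sources used here. Array medians lay between 6.34 and 6.43, no arrays were identical (highest correlation 0.996), and the number of arrays limits the precision. Columns were joined to samples by identifier and grouped by title.

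Of the probe sets, 21640 had 1 gene symbol, 1321 several and 11799 none listed; 21553 matched a gene in the GRCm38.p6 table. For 954 symbols with several, the brightest was used (among the 10 members, Wnt4 only). limma 3.58.1 in R 4.3.3 (lmFit on 4 group means, eBayes, Benjamini-Hochberg over 19937 genes, threshold 0.05) gave each difference and SE, and was tested on simulated data. Alternatives were 13 settings and leaving out each of 25 arrays. All 10 members are named; of 12 further lists (112 of 125 genes measured) counts are given and at most the 4 genes with the smallest adjusted p per comparison, plus a few receptors whatever their value. The members, lists and left-out arrays were chosen with earlier results of these data known. Replicate numbers are shared between groups, but deviations of same-numbered samples correlated at -0.28 to 0.51, so they were not taken as pairs. Figures used matplotlib 3.10.9.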

Additional observations from a re-analysis of the deposited data

Results flagged for a closer look

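In 11 cases a single array lay apart from the rest of its group of 10 by a gap beyond Dixon's 95% critical value. There were 20 such groups (10 genes in each tumor line), and chance gives about 1 in 20. The genes share the same arrays, however, so the 11 cases are not independent of each other. K8 tumor 9 accounted for 7 of these: Esr1 at 7.27 (log2; next array 9.16), Pgr at 5.84 (8.79), Foxa1 at 7.15 (10.48), Cited1 at 7.63 (10.30), Gata3 at 9.49 (11.09) and Tbx3 at 7.32 (8.76), all low, and Xbp1 at 12.72 (12.08), high. Lgr5 tumor 10 was low for Esr1, at 7.71 (8.90), and for Foxa1, at 7.77 (9.66). Greb1 was high in K8 tumor 7, at 6.27 (5.49), the K8 tumor with the highest adipocyte mean (11.24). Tnfsf11, the RANKL gene, was high in K8 tumor 4, at 10.66 (8.55).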

How the results depend on the processing

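Directions held in most alternatives, and counts of called genes moved more. Calls over all genes are given in brackets. In the Lgr5 tumor-gland comparison 2 of 10 genes passed (3168), against 1 with only the compared groups (690), 6 with array weights (7815), 1 with the replicate block (1737), 0 with the adipocyte (0) or the epithelial mean (5) as a covariate, 0 without Lgr5 tumors 2, 6, 7, 8 and 9 (1), 6 without the squamous-high tumors K8 9 and Lgr5 10 (5387), 6 without all 7 (3582), and 0 to 3 without 1 array (252 to 4990). In the K8 tumor-gland comparison 5 passed (1815), against 4 with the replicate block (1420), 6 with the adipocyte covariate (2872), 8 with array weights (6341), 7 without the squamous-high tumors (3963), 8 without all 7 arrays (5351) and 0 to 7 without 1 array (30 to 3382). Between tumors 2 passed (4246), against 1 with only the compared groups (3238), 5 with array weights (7997), 0 with either covariate (0 each), 0 without the 5 Lgr5 tumors (0), 5 without the squamous-high tumors (5651), 0 without all 7 (0), and 1 to 5 without 1 array (2291 to 5698). The replicate block also ended the Esr1 calls (limma adjusted p = 0.0625 in the K8 line and 0.122 in the Lgr5 line), and same-numbered tumors were each other's best match for 1 K8 tumor; it changed no other call. Signs turned as follows. Gata3 in the Lgr5 line was 0.58 and 0.26 with the adipocyte and epithelial covariates, 0.34 without the 5 Lgr5 tumors, 0.61 without all 7, and -0.36 to 0.049 without 1 array. Tnfsf11 there was -0.036 with the epithelial covariate, -0.12 without the 5 and -0.16 without all 7, and Greb1 was -0.021 with the adipocyte covariate. Greb1 in the K8 line ran from -0.014 to 0.16 without 1 array. Between tumors Esr1 was -0.012 with array weights, -0.0029 with quantile normalization and -0.16 to 0.22 without 1 array. Greb1 was 0.15 with the adipocyte covariate, 0.0043 without the squamous-high tumors, and -0.11 to 0.015 without 1 array. Tnfsf11 was -0.18 with array weights and -0.22 to 0.24 without 1 array. Xbp1 was -0.0014 and -0.15 with the covariates, -0.094 without the 5, -0.063 without all 7, and -0.0095 to 0.15 without 1 array. Between glands Gata3 was 0.062 with array weights (-0.25 to 0.15 without 1 array), Tnfsf11 0.024 with the epithelial covariate (-0.10 to 0.032), Greb1 ran from -0.0034 to 0.15 and Tbx3 from -0.96 to 0.58. For the difference of contrasts Greb1 was 0.055 with the adipocyte covariate, Tnfsf11 -0.11 with array weights (-0.19 to 0.28 without 1 array) and Tbx3 -0.30 to 1.24. Of these, Gata3 without all 7 arrays passed the test, in a fit without the 6 Lgr5 tumors below every gland. The cause of these changes was not tested. Greb1 has no value without the lower quartile (25%) of genes, and the fit of only the compared groups does not apply to the difference of contrasts. With 2 K8 glands, leaving out either ended all 5 K8 calls while the differences stayed close.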
